A study of Mus musculus with 5 samples.

Results

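The comparison set Th1+TGFb cells against iTreg cells, 2 of the 5 CD4 T cell cultures of the study, which were chosen by their labels because both had spent their last 4 days in the same medium. Both cultures began with naive CD4 T cells from the spleen of C57BL/6 mice, and no other genotype is given. The shared medium held antibodies to CD3 and CD28, IL-2, TGF-b, and antibodies that block IFNg and IL-4. The iTreg culture went into it as naive cells and was harvested after 4 days. The Th1+TGFb culture had first spent 4 days as a Th1 culture, with IL-12, IL-2, the CD3 and CD28 antibodies and an antibody against IL-4, so that it was harvested after 8 days. Earlier stimulation, IL-12, the Th1 state at the start and the added 4 days therefore cannot be told apart in this comparison. The other 3 cultures are used for their levels alone. They are the Th1 culture itself (4 days), Th1 cells kept for 4 more days in IL-2 with IFNg and IL-4 blocked (rested, 8 days), and rested cells moved into the iTreg medium for a final 4 days (Th1reg, 12 days). The number of mice and any pooling are not given in the sources used here.

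A Th1 cell is a CD4 T cell committed by IL-12 and the transcription factor T-bet, and it is known for IFN-gamma, inflammatory chemokines and the receptors that take it to inflamed tissue. An induced regulatory T cell arises when a naive CD4 T cell is stimulated in the presence of TGF-beta and IL-2, which switch on the transcription factor Foxp3, the factor that regulatory T cells depend on. Whether cells already committed to the Th1 state take on the iTreg state in the medium that gives it to naive cells is what a comparison of these cultures addresses.

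Each culture was measured on 1 one-colour Agilent array of short DNA probes. There are no replicates, so no spread between cultures, test or p-value could be had, and every value below describes single arrays. Values are log2 signals scaled to each array's 75th percentile, called scaled signals, and a difference is Th1+TGFb minus iTreg on that log2 scale. A gene is called higher or lower when the arrays were at least 2-fold apart. Repeat spots of a probe gave a median SD of 0.09 for such a difference, and of 0.26 where the signal was under 100, which covers the array and not the cultures. A gene without the scanner software's mark for a signal well above background is called dim, and a difference from a dim value is a lower bound, written as at least N-fold. The lowest scaled signal well above background was -3.24 on the Th1+TGFb array and -3.48 on the iTreg array. The share of spots well above background was 47.7% and 48.7%, and the 75th percentile of the signal was 173 and 238. All 5 arrays lay on 1 slide with 1 scan time. In bulk RNA, fewer cells of a type and less RNA per cell cannot be told apart.

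Of 21366 genes with a value, 13273 were well above background on 1 or both arrays and were compared. Of these, 2202 (16.6%) were at least 2-fold higher in Th1+TGFb, 1389 (10.5%) were at least 2-fold lower, and 9682 were less than 2-fold apart. The count of every gene list below is to be read beside these shares. In all, 27.1% of the genes compared were 2-fold apart, and 61.3% of those were higher in Th1+TGFb. That split depended on the scaling: 50.2% of the 2-fold genes were higher when the 75th percentile was taken over the probes detected on all 5 arrays, and 21.3% when the arrays were scaled to the spike-in probes. These scalings lowered the median difference of 0.11 by 0.15 and 0.66. Counted over all non-control probes in place of genes, 4023 of 28854 (13.9%) were higher and 3568 (12.4%) lower, which is 26.3% either way. On the main scale the larger differences leaned towards Th1+TGFb, with 369 genes at least 8-fold higher and 102 at least 8-fold lower, and 110 against 17 at 32-fold.

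**Figure D1:**
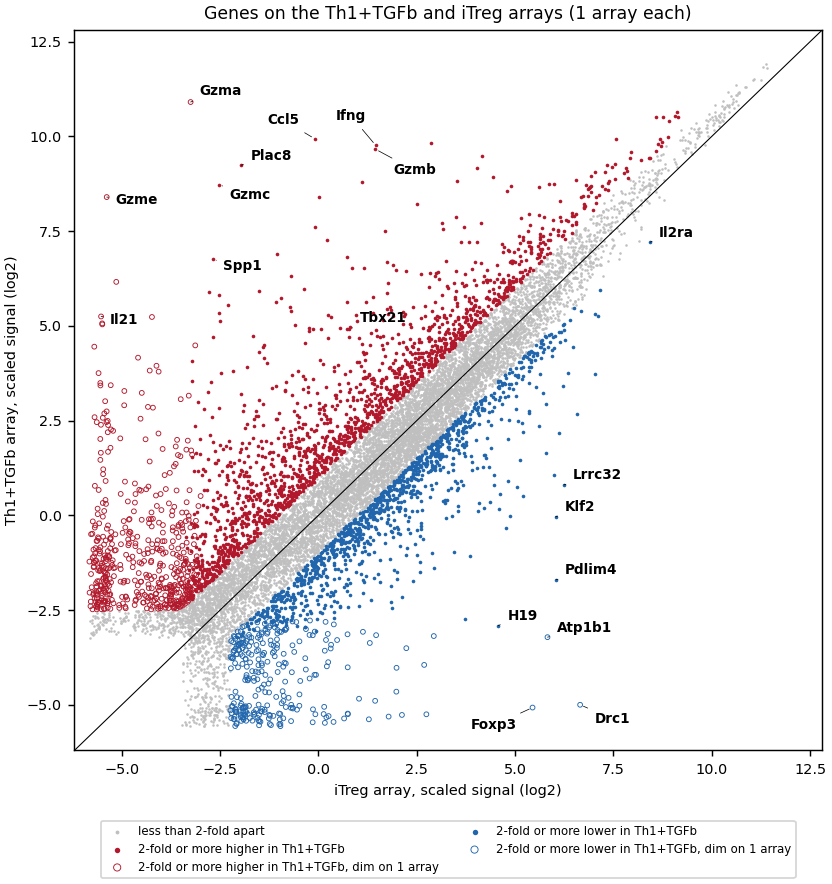
Scaled log2 signal of each compared gene on the iTreg array (horizontal axis) and on the Th1+TGFb array (vertical axis), with the diagonal of equal signal. Red points are the 2202 genes at least 2-fold higher in Th1+TGFb, blue points the 1389 at least 2-fold lower, grey points the 9682 between, and open circles are genes dim on 1 array. Gzma, Gzme, Ccl5 and Plac8 lie far above the diagonal, and Foxp3, Drc1, Atp1b1 and Pdlim4 far below it.

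**Figure D2:**
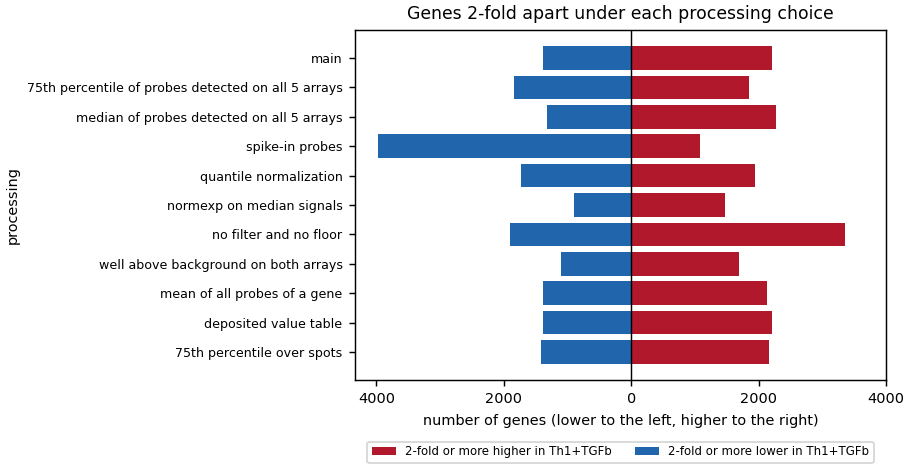
Number of genes at least 2-fold lower (blue, to the left of 0) and at least 2-fold higher (red, to the right) in Th1+TGFb under each processing choice, 1 bar pair for each choice. The main setting gave 2202 higher and 1389 lower, while scaling to the spike-in probes gave 1075 higher and 3968 lower.

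Foxp3 was among the genes furthest below iTreg. It had a scaled signal of 5.44 on the iTreg array and 4.36 on the Th1reg array, and was dim on the other 3. It was at least 411-fold lower in Th1+TGFb than in iTreg. Of the 5 arrays, those of the 2 cultures that entered the medium as naive or as rested cells therefore had a measured Foxp3 signal, and that of the culture that entered it directly from Th1 did not. Lrrc32, which encodes GARP, the surface protein that holds latent TGF-beta on regulatory T cells, had scaled signals of 6.24 in iTreg, 0.81 in Th1+TGFb, 1.57 in Th1, 1.69 in rested and 5.49 in Th1reg, a 43.3-fold difference between Th1+TGFb and iTreg. The order of the arrays was like that of Foxp3, with both Th1+TGFb and the cultures outside the medium at low values. The 250 bases upstream of the start of Foxp3, at chrX:7579426-7579675 on the plus strand (RefSeq, GRCm38.p6), are shown because this gene marks the difference between the cultures.

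Foxp3: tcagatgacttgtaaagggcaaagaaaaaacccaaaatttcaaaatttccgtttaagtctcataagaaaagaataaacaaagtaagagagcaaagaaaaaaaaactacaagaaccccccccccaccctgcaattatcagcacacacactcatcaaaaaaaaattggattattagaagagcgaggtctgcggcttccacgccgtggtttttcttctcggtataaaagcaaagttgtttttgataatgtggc

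No match to the 4 motifs searched below was found in this window.

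The rest of the Treg signature was divided. Of its 22 compared genes, 10 were at least 2-fold lower in Th1+TGFb (10.5% of all genes compared) and 9 were at least 2-fold higher (16.6% of all), with a median difference of -0.35 that reached -1.01 with spike-in scaling, when 11 were lower and 6 higher. Besides Foxp3 and Lrrc32, the lower genes included Socs2, a feedback inhibitor of cytokine signalling (9.57-fold), the semaphorin receptor gene Nrp1 (5.38-fold), the chemokine receptor gene Ccr8 (5.04-fold) and Ikzf4, which encodes the Ikaros-family factor Eos (2.51-fold). Il2ra, the high-affinity chain of the IL-2 receptor, had scaled signals of 8.43 in iTreg, 7.21 in Th1+TGFb, 8.25 in Th1, 5.24 in rested and 8.16 in Th1reg, and was 2.33-fold lower in Th1+TGFb. Its signal was lowest in rested and within 1 log2 unit of iTreg in Th1 and Th1reg.

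Several genes of regulatory function were on the other side. Il10, an anti-inflammatory cytokine gene, had scaled signals of 2.23 in Th1+TGFb and 1.89 in Th1 with dim values on the other 3 arrays, so that it was at least 52.4-fold higher in Th1+TGFb. Ctla4, the inhibitory receptor that competes with CD28, stood at 2.55 in iTreg, 4.57 in Th1+TGFb, 4.73 in Th1, 2.93 in rested and 3.90 in Th1reg, 4.08-fold higher in Th1+TGFb. Both genes had their lowest or a dim value in iTreg. Tnfrsf9, which encodes the costimulatory receptor 4-1BB, was 12.7-fold higher by 1 of its 2 probes, with a log2 difference of 0.51 by the other, Entpd1, the ectoenzyme CD39, at least 8.24-fold, Tigit at least 7.83-fold, and Tnfrsf4 and Tnfrsf18, which encode OX40 and GITR, 2.52-fold and 2.26-fold higher.

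**Figure D3:**
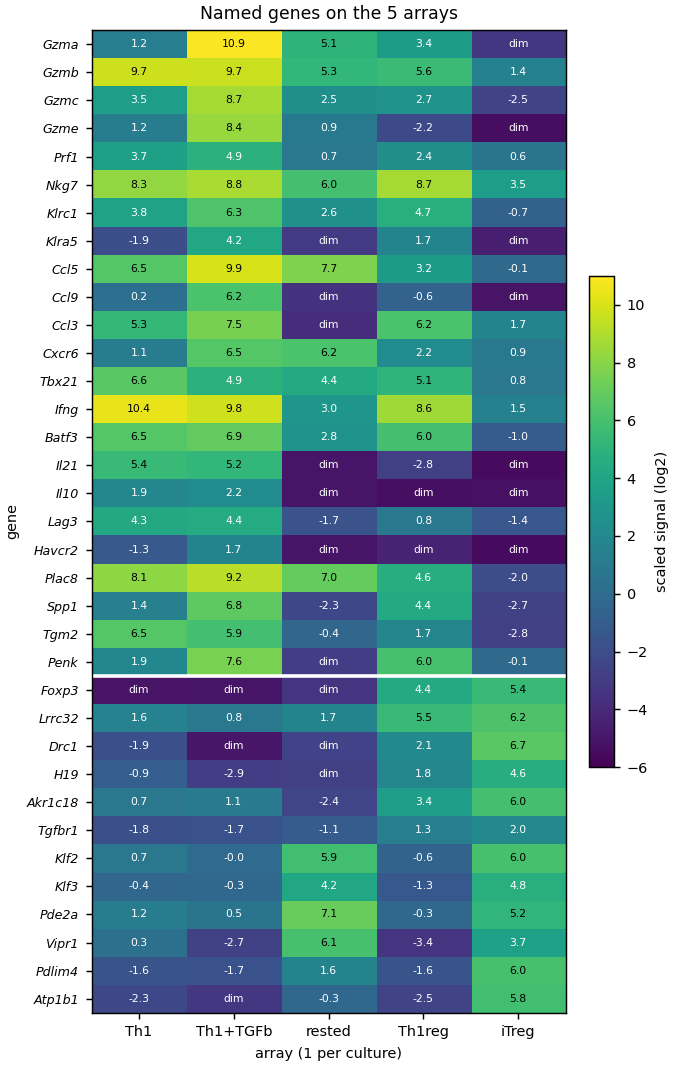
Scaled log2 signal (colour and printed value) of selected genes on the 5 arrays, 1 column for each culture, with genes higher in Th1+TGFb above the white line and genes lower in it below. The word dim marks values not well above background. Foxp3 reads dim in Th1, rested and Th1+TGFb and 5.4 on the iTreg array, while Gzma reads 10.9 on the Th1+TGFb array and dim on the iTreg array.

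The Th1 programme stood higher in Th1+TGFb. Of 24 genes compared, 21 were at least 2-fold higher and 2 lower, with a median difference of 3.56 against 0.11 over all genes, and the median stayed between 2.90 and 3.58 under the alternatives run. Tbx21, which encodes T-bet, had scaled signals of 0.77 in iTreg, 4.92 in Th1+TGFb, 6.64 in Th1, 4.39 in rested and 5.10 in Th1reg, 17.7-fold higher in Th1+TGFb than in iTreg. All 4 cultures with a Th1 past lay above iTreg, with Th1+TGFb below Th1. Ifng, the signature cytokine gene of Th1 cells, stood at 1.46 in iTreg, 9.76 in Th1+TGFb, 10.45 in Th1, 2.96 in rested and 8.61 in Th1reg, a 317-fold difference. Ifng was high in the 3 stimulated cultures with a Th1 past and low in the rested one.

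Receptors for the cytokines that drive Th1 cells were also higher. Il12rb2, the signalling chain of the IL-12 receptor, was 20.4-fold higher, Il12rb1 13.1-fold and the transcription factor gene Stat4, which acts below that receptor, 10.6-fold. Hlx, a homeobox factor gene of Th1 cells, was at least 19.2-fold higher, Runx3 3.10-fold and Eomes, a T-box factor related to T-bet, 5.90-fold. The surface antigen gene Ly6c1 was 124-fold higher, and Ly6 genes are close relatives whose probes may share signal. The 2 genes of the list that went the other way were Lta, which encodes lymphotoxin-alpha (2.60-fold lower), and Il18r1, a chain of the IL-18 receptor (2.48-fold lower), while its partner chain Il18rap was 3.78-fold higher.

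The largest differences lay in granzymes, the serine proteases that killer lymphocytes deliver into target cells. Of 19 compared genes of granzymes and the cytotoxic granule, 14 were at least 2-fold higher in Th1+TGFb and none was at least 2-fold lower, with a median difference of 4.37 and of 2.91 at its lowest among the alternatives. Gzma was dim in iTreg and had scaled signals of 10.91 in Th1+TGFb, 1.25 in Th1, 5.06 in rested and 3.42 in Th1reg, a difference of at least 18210-fold. Th1+TGFb stood above every other array for this gene, the Th1 culture included. Gzmb stood at 1.45 in iTreg, 9.66 in Th1+TGFb, 9.72 in Th1, 5.28 in rested and 5.58 in Th1reg, a 297-fold difference. Here Th1 and Th1+TGFb had nearly the same signal, unlike for Gzma.

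Gzmc stood at -2.53 in iTreg, 8.73 in Th1+TGFb, 3.53 in Th1, 2.49 in rested and 2.67 in Th1reg, a 2448-fold difference whose lower value lies near the edge of detection. Gzme was at least 3766-fold higher, Gzmg at least 420-fold, Gzmd at least 374-fold and Gzmf at least 90.0-fold. Gzmc to Gzmg are close copies of each other, so that their probes may share signal and the value of each is uncertain. Several genes of the list outside the granzyme family were higher as well, while Ctsw, Tnfsf10 and Lamp1 differed by 0.53, 0.51 and 0.32. Prf1, the pore-forming perforin, was 20.9-fold higher, Nkg7, a granule membrane protein, 39.6-fold, Srgn, the proteoglycan serglycin that packs the granule, 13.5-fold, and Fasl, the death ligand, 9.13-fold. Gzmk differed by 0.19 and Gzmm by 0.01, so the granzyme genes did not all stand apart.

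The granzyme genes on chromosome 14 differ in the sequence next to their starts, and 4 of these upstream windows of 250 bases are shown (RefSeq, GRCm38.p6, all on the minus strand) because their genes had some of the largest differences. Capitals in Gzmb mark an AP-1 motif, TGAGTCA. Capitals in the other windows mark a run of 25 bases shared by Gzmc, Gzmd and Gzme and held by 3 of the 27025 promoters in the table. The windows lie at chr14:56262335-56262584 for Gzmb, chr14:56234658-56234907 for Gzmc, chr14:56132594-56132843 for Gzmd and chr14:56120626-56120875 for Gzme.
Gzmb: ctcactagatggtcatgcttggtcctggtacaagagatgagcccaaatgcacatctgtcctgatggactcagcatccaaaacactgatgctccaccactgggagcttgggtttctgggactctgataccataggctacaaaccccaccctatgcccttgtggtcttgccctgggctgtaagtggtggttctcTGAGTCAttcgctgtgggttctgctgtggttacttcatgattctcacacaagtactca
Gzmc: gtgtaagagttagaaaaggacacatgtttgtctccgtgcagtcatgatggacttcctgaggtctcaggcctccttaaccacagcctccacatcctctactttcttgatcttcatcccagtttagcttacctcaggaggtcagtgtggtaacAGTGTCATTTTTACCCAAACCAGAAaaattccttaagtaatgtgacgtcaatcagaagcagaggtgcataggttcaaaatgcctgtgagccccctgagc
Gzmd: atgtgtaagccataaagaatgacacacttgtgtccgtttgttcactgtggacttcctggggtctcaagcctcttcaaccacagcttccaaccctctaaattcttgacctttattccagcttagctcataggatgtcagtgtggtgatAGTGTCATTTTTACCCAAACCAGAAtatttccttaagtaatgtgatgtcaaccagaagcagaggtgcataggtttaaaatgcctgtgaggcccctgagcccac
Gzme: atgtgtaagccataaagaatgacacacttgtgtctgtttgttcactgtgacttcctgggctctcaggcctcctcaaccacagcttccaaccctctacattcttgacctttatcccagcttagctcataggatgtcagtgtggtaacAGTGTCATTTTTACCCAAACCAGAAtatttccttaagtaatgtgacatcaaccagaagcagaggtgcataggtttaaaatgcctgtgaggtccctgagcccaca

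Aligned over their whole length, the windows of Gzmd and Gzme were 94.8% identical, that of Gzmc was 80.5% and 80.9% identical to them, and that of Gzmb was 44.1% to 47.5% identical to those of the other granzymes tested. Over all promoters with a compared gene, 4 motifs were searched on both strands. The AP-1 motif TGANTCA was in 6.69% of the 1733 promoters of genes 2-fold higher, in 2.96% of the 1116 of genes 2-fold lower, in 4.57% of all 10619 compared and in 6.86% of the 27025 in the table. The T-box motif TCACACC was in 3.69% of the higher, 2.96% of the lower, 2.95% of the compared and 3.31% of all promoters. The STAT motif TTCNNNGAA was in 6.23%, 7.35%, 6.13% and 7.15% of the same sets, and the SMAD motif GTCTAGAC in 0.115%, 0.269%, 0.235% and 0.174%. A match describes the letters of a window and is not a binding site.

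Receptors of the killer lectin-like family, which natural killer cells and some T cells use to sense target cells, were higher in Th1+TGFb wherever compared. All 11 compared genes were at least 2-fold higher, with a median difference of 4.72, and 3 more were dim on both arrays. Klrc1, which encodes the inhibitory receptor NKG2A, had scaled signals of -0.69 in iTreg, 6.33 in Th1+TGFb, 3.82 in Th1, 2.56 in rested and 4.70 in Th1reg, a 130-fold difference. Its partner gene Klrd1, or CD94, was 26.4-fold higher, and Klrk1, the activating receptor NKG2D, at least 23.7-fold. Klra5 was at least 200-fold, Klra8 at least 74.7-fold and Klre1 at least 30.8-fold higher, and the Klra genes are close copies whose probes may share signal. For 7 of the 11 genes the iTreg array was dim, so those values are bounds. These 7 were compared through their Th1+TGFb signal alone and could not come out lower. The 4 genes well above background on both arrays were all at least 2-fold higher, with a median difference of 4.16.

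CD8 T cell and NK cell markers were looked at beside these genes. The defining genes Ncr1, Klrb1c and Tyrobp were dim on both arrays. Cd8a was dim in Th1+TGFb and at -0.10 in iTreg, at least 8.82-fold lower in Th1+TGFb, and Cd8b1 differed by -0.99. The summed signal of the 7 markers was 3.15 in Th1+TGFb and 0.91 in iTreg on the log2 scale, and Klra8 and Eomes were the 2 that were at least 2-fold higher. The part of such cells in the differences was not tested. The CD4 T cell genes Cd3d, Cd3e, Cd3g, Cd4, Cd5 and Cd2 were well above background on all 5 arrays, with Cd4 at 5.76 in Th1+TGFb and 4.30 in iTreg. They were not level between the arrays. Cd3d, Cd3e, Cd3g and Cd4 were at least 2-fold higher in Th1+TGFb, by 1.91, 1.20, 2.70 and 1.47, and Cd5 and Cd2 differed by 0.53 and 0.81. Of 7 B cell markers, Cd79a and Pax5 were dim on both arrays, Cd79b was at least 9.05-fold lower and Cd22 2.33-fold higher in Th1+TGFb, and the summed signals were 1.81 and 1.58. Of 11 myeloid markers, Lyz1, Lyz2, Adgre1, S100a8 and S100a9 were dim on both, and 3 of the 6 compared were at least 2-fold higher in Th1+TGFb with none lower. These were Cd14 (at least 3.47-fold), Itgam (2.61-fold) and Csf1r (a log2 difference of 1.26). Itgam was 2-fold apart by 1 of its 3 probes, with -0.02 by another, and the other probe of Csf1r gave 0.45. With spike-in scaling, with normexp and with the mean of all probes, 1 marker was higher. Csf3r, Siglech and Itgam had signals between 5.84 and 9.62 on every array. The myeloid sums were 10.34 and 10.01. Of 4 erythroid markers, Hbb-b1 and Alas2 were dim on both arrays, Hba-a1, the 1 marker compared, was at least 2.62-fold lower in Th1+TGFb, and the sums were -2.69 and -1.53.

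Chemokine genes and the receptors that read them differed in a sided way. All 7 compared ligand genes were at least 2-fold higher in Th1+TGFb, with a median difference of 5.30, and 5 more were dim on both arrays. With spike-in scaling 5 of the 7 were still 2-fold higher, and Xcl1 and Ccl1 were not. With no filter on dim probes, 8 of all 12 were higher and the median was 1.63. Ccl9 and Cxcl10 were dim in iTreg, so they were compared through their Th1+TGFb signal alone and could not come out lower. Ccl5, which encodes the inflammatory chemokine RANTES, had scaled signals of -0.09 in iTreg, 9.94 in Th1+TGFb, 6.51 in Th1, 7.69 in rested and 3.25 in Th1reg, a 1046-fold difference. The iTreg array was the lowest for Ccl5 and the Th1+TGFb array the highest. Ccl9 was at least 799-fold, Ccl3 56.4-fold and Ccl4 39.5-fold higher, and Ccl3 and Ccl4 are similar in sequence.

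Of 16 compared chemokine receptor genes, 10 were at least 2-fold higher and 5 lower, or 7 and 5 with spike-in scaling. Those higher included Cxcr1 (at least 244-fold), a receptor better known from neutrophils, Cxcr6 (50.7-fold) and Cxcr3, the main Th1 homing receptor (5.41-fold). Cxcr6 had scaled signals of 0.86 in iTreg, 6.53 in Th1+TGFb, 1.15 in Th1, 6.17 in rested and 2.20 in Th1reg, so that it was high on the Th1+TGFb and rested arrays, both of cells harvested 4 days after the Th1 step. Those lower in Th1+TGFb were Cx3cr1 (at least 44.5-fold), Ccr8 (5.04-fold), Ccr6 (4.83-fold), Ccr4 (2.71-fold) and Cxcr5 (at least 2.43-fold).

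Genes higher in Th1+TGFb lay side by side in several places, described for spans chosen after their values were seen, with gene order taken from the RefSeq table of GRCm38.p6. In the granzyme B cluster of chromosome 14, 6 of the 7 coding genes were compared and all 6 were at least 2-fold higher, while Gzmn was dim on both arrays. Of its nearest coding neighbours, Ctsg, the gene of cathepsin G, was at least 2.26-fold higher, and Mcpt8, Atp12a and Rnf17 were dim on both arrays. Around Gzma on chromosome 13, 6 of 7 coding genes were at least 2-fold higher. Esm1, a secreted proteoglycan gene, was at least 367-fold higher, Gpx8, a glutathione peroxidase gene of the endoplasmic reticulum, at least 61.4-fold, Cdc20b at least 6.35-fold, Ccno 4.55-fold and Mcidas 2.51-fold, whereas Gzmk, next to Gzma, differed by 0.19. The genes beyond them, Dhx29, Mtrex and Snx18, differed by -0.19, -0.53 and 0.16. In each other span the genes compared were all at least 2-fold higher, beside 16.6% over all genes compared. Genes dim on iTreg entered the spans through their Th1+TGFb signal alone and could not come out lower, so the counts are a description. The counts were 4 of 5 coding genes of the Ccl cluster on chromosome 11 and 4 of 7 of the Ccr cluster on chromosome 9. They were 13 of 19 for the killer receptor cluster on chromosome 6 and 4 of 4 for the Ly6 cluster on chromosome 15. Ly6a was 205-fold higher, and Gabarapl1, just outside the killer receptor span, 4.78-fold. Scaling to the spike-in probes lowers each of these differences by 0.66. That takes Mcidas, Klra4 and Ly6e below 2-fold, so that the counts of their spans are smaller there. Ctsg, outside the granzyme B span, also falls below 2-fold.

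**Figure D4:**
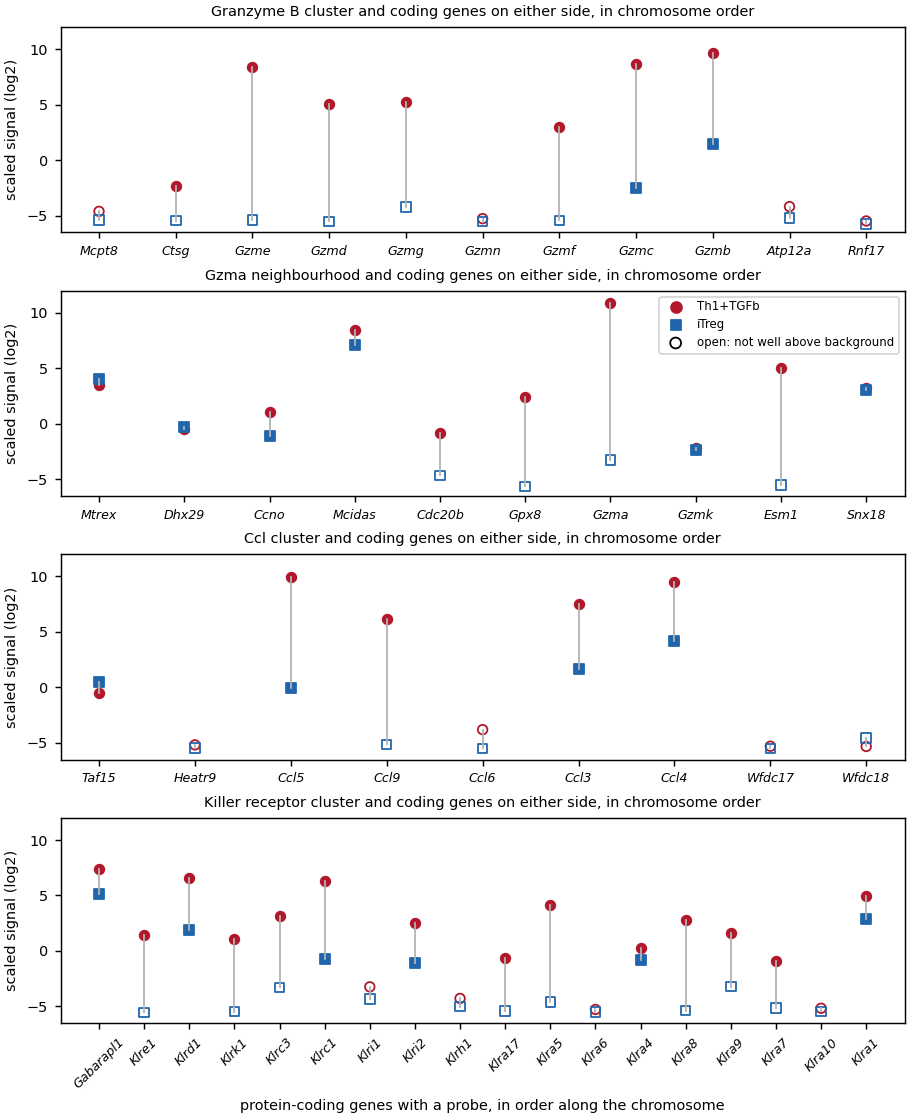
Scaled log2 signal on the Th1+TGFb array (red circles) and the iTreg array (blue squares) for coding genes with a probe, in chromosome order, in 4 clusters with their nearest neighbours. Open symbols are not well above background and grey lines join the arrays. Gzma and Esm1 are far apart between the arrays, while Gzmk beside Gzma and the outer genes Dhx29 and Snx18 are nearly level.

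Cytokine genes were mostly higher, with 14 of 20 compared at least 2-fold higher and 2 lower, and a median difference of 2.0. Il21, which acts on B cells and CD8 T cells, had scaled signals of 5.43 in Th1 and 5.25 in Th1+TGFb, -2.78 in Th1reg, and was dim in rested and iTreg, at least 424-fold higher in Th1+TGFb than in iTreg. The growth factor gene Csf1 was 57.0-fold, Csf2, or GM-CSF, 7.33-fold, Tnf 4.24-fold and Il2 3.88-fold higher. Il17f, a Th17 cytokine gene, was at least 4.84-fold lower. Il4, Il5, Il6, Il9 and Il17a were dim on both arrays.

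Of 22 cytokine receptor genes, 12 were at least 2-fold higher and 5 lower, a split that became 7 and 7 with spike-in scaling. The decoy receptor gene Il1r2 was 36.4-fold higher, Il7r, the receptor that sustains resting T cells, 20.6-fold, and Il21r 9.51-fold. Il6ra, a receptor chain of the pathway that turns TGF-beta-treated cells towards Th17, was 14.9-fold lower, its signalling chain Il6st 4.84-fold and Il10ra 2.26-fold. Of the SOCS feedback genes, 1 of 8 was higher (Socs3, 4.75-fold) and 1 lower (Socs2), shares near those over all genes, while 4 were lower with spike-in scaling and 2 with the detected-probe percentile.

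Genes of the TGF-beta pathway were compared because both cultures received TGF-b. Of 22 compared, 6 were at least 2-fold higher and 4 lower, beside 16.6% and 10.5% over all genes, with a median difference of -0.11. With spike-in scaling 4 were higher and 9 lower. Among the ligands, Tgfb3 was at least 39.2-fold higher in Th1+TGFb and Tgfb2 2.06-fold, while Tgfb1, the main form in T cells, differed by 0.88. Tgfbr1, the kinase chain of the receptor, had scaled signals of 2.0 in iTreg, -1.69 in Th1+TGFb, -1.83 in Th1, -1.08 in rested and 1.30 in Th1reg, 12.9-fold lower in Th1+TGFb. The order of the arrays was again that of Foxp3, with Th1reg and iTreg above the other 3. The binding chain Tgfbr2 differed by 0.15.

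The signal carriers Smad2, Smad3 and Smad4 differed by 0.17, 0.26 and -0.86. The targets and feedback inhibitors Smad7, Skil and Pmepa1 differed by -0.79, -0.96 and -0.84, each under 2-fold, and Ldlrad4, an inhibitor of receptor signalling, was 5.05-fold lower. Pmepa1 had scaled signals of 3.12 in iTreg, 2.27 in Th1+TGFb, 0.16 in Th1, -1.99 in rested and 2.71 in Th1reg. For Pmepa1, and also for Skil, the 3 arrays of cells from the TGF-b medium lay above the 2 without it. Smad7 had another order, with -1.44 in rested, -1.56 in iTreg, -2.35 in Th1+TGFb and -2.56 in Th1reg, and was dim in Th1. Smad6 and Tgif1 were also highest in rested. Id3 was 9.82-fold lower and Id2 11.4-fold higher, 2 inhibitors of E-protein transcription factors. Ltbp3, which encodes a protein that binds latent TGF-beta, was 12.4-fold higher.

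H19 and 3 further imprinted growth genes were lower in Th1+TGFb. H19, a maternally expressed long noncoding RNA, had scaled signals of -0.91 in Th1, -2.91 in Th1+TGFb, 1.83 in Th1reg and 4.57 in iTreg and was dim in rested, a 178-fold difference with the lower value near the edge of detection. Of 6 compared genes of this list, 4 were at least 2-fold lower and none was at least 2-fold higher, with a median difference of -1.74 that became 0.23 when all 15 members were used with no filter on dim probes. Plagl1, a zinc-finger factor gene, was 14.1-fold lower, although 1 of its 4 compared probes went the other way. The cyclin-dependent kinase inhibitor gene Cdkn1c was 4.16-fold lower and Igf2r, which clears IGF2, 2.70-fold. The other 9 members, Igf2 among them, were dim on both arrays.

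Other genes far below iTreg had varied roles. Drc1, known from motile cilia, was at least 950-fold lower, the sodium pump subunit gene Atp1b1 at least 525-fold and Pdlim4, a PDZ and LIM domain protein gene, 214-fold. Pdlim4 had scaled signals of 6.04 in iTreg, -1.70 in Th1+TGFb, -1.57 in Th1, 1.60 in rested and -1.58 in Th1reg. For Pdlim4 the Th1reg array was therefore low, unlike for Foxp3. Klf2, the factor that keeps naive T cells quiescent and lets them leave lymphoid organs, stood at 6.03 in iTreg, -0.04 in Th1+TGFb, 0.75 in Th1, 5.86 in rested and -0.60 in Th1reg, a 67.1-fold difference. The related Klf3 was 34.3-fold lower, Vipr1, a receptor for vasoactive intestinal peptide, 88.7-fold, and Pde2a, a cyclic nucleotide phosphodiesterase gene, 26.0-fold. These 4 genes were high in rested and iTreg and low on the other 3 arrays.

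Of the 17 genes at least 32-fold lower in Th1+TGFb, the next highest array among the other 3 was rested for 9, Th1reg for 8 and Th1 for none. Of the 102 genes at least 8-fold lower it was rested for 48, Th1reg for 39 and Th1 for 15. Genes at least 8-fold higher had another order. Of those 369, the highest of the other 3 arrays was Th1 for 211, Th1reg for 90 and rested for 68. The median scaled signal of the 369 genes was 2.59 in Th1+TGFb and -2.35 in iTreg, against 1.55 in Th1, 0.76 in Th1reg and -0.01 in rested. Over all genes compared, the medians were 1.27 in Th1+TGFb, 1.22 in iTreg, 1.49 in Th1, 1.54 in Th1reg and 0.98 in rested. On the Th1 array 94.9% of them were well above background, near the 90.3% over all genes compared. For the 102 lower genes the medians were 2.13 in iTreg and -2.26 in Th1+TGFb, against -1.92 in Th1, -1.12 in Th1reg and -0.87 in rested. The genes were chosen by their Th1+TGFb and iTreg values, so the levels on those 2 arrays are a description. How often each of the other 3 arrays was highest over all genes compared was not counted. The counts of highest arrays therefore have no share to be read against.

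Other genes far above iTreg included several for secreted proteins. Plac8 was 2346-fold higher, Spp1, which encodes osteopontin, 695-fold, Tgm2, a protein cross-linking enzyme, 404-fold, Ltb4r1, the leukotriene B4 receptor, 320-fold, Timp1, an inhibitor of matrix proteases, 232-fold and Penk, an opioid precursor gene, 207-fold. Spp1 had scaled signals of -2.69 in iTreg, 6.75 in Th1+TGFb, 1.41 in Th1, -2.30 in rested and 4.36 in Th1reg. Penk stood at -0.09 in iTreg, 7.60 in Th1+TGFb, 1.91 in Th1 and 6.03 in Th1reg and was dim in rested. Both were highest in Th1+TGFb and next highest in Th1reg. Of 9 compared serpin genes, 7 were at least 2-fold higher and none was at least 2-fold lower, led by Serpine2 (at least 155-fold) and Serpinf1 (66.9-fold). Serpinb9, whose product inhibits granzyme B, was 3.97-fold higher.

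**Figure D5:**
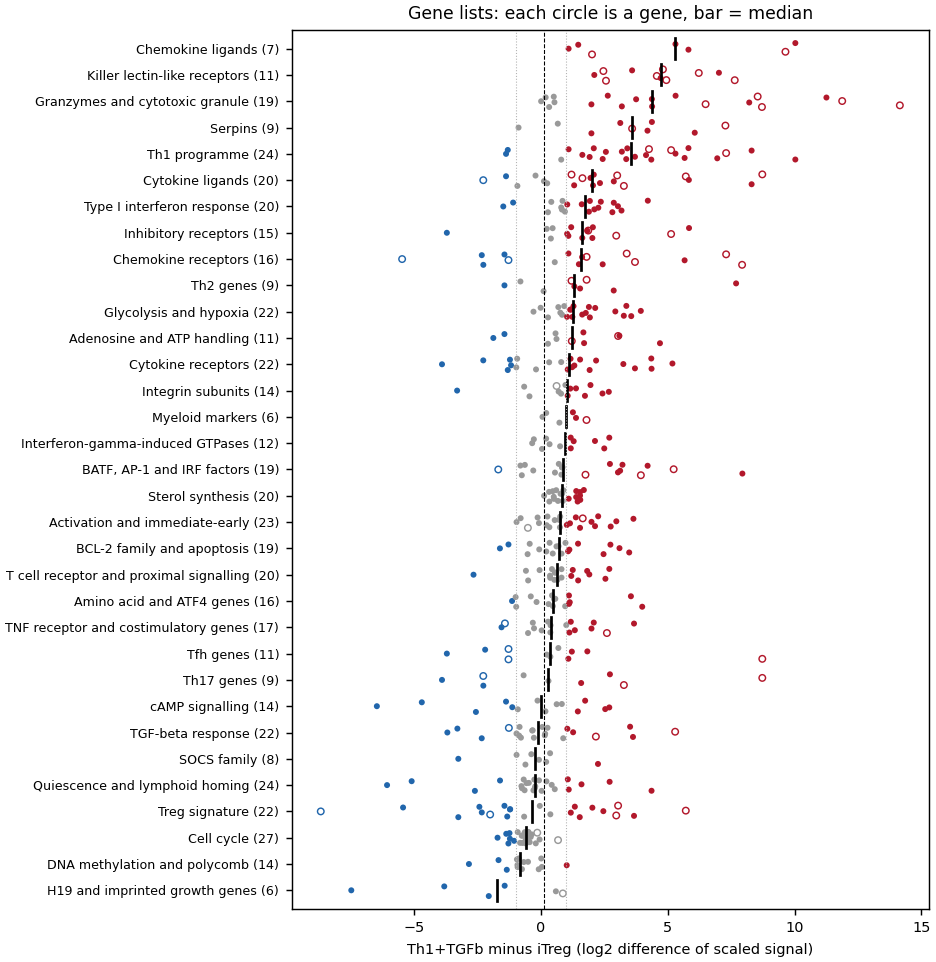
Difference between Th1+TGFb and iTreg (log2) for each compared gene of the 33 lists with at least 5 compared members, 1 row for each list with the number compared in brackets. Red circles are genes at least 2-fold higher, blue circles genes at least 2-fold lower, open circles bounds, black bars list medians, and the dashed line the median of all genes (0.11). Chemokine ligands and killer lectin-like receptors lie at the top, and the list of H19 and imprinted growth genes at the bottom.

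A list of BATF, AP-1 and IRF factors, which also held other transcription factor genes, had 9 of 19 members at least 2-fold higher and 1 lower. Its median was 0.85, which came to 0.19 with 4 genes lower under spike-in scaling. Prdm1, Zbtb32 and Zeb2, from outside these families, were among the higher genes, and Ikzf3, also from outside them, was the lower one. Batf3 was 246-fold higher, Prdm1, which encodes Blimp-1, at least 37.6-fold, Atf3 18.5-fold and Batf 6.59-fold. Batf3 had scaled signals of -1.04 in iTreg, 6.90 in Th1+TGFb, 6.49 in Th1, 2.76 in rested and 6.01 in Th1reg. The stimulated cultures with a Th1 past thus had the highest Batf3 signals. Of 15 genes on the inhibitory receptor list 11 were higher and 1 lower, with a median of 1.63, or 7 and 1 with spike-in scaling. The higher ones included Cd274, Pdcd1lg2 and Cd200, which encode ligands and not receptors. Lag3, which binds MHC class II, was 57.2-fold and Havcr2, or TIM-3, at least 35.1-fold higher, and Pdcd1, or PD-1, 2.12-fold, whereas Tox, a factor gene grouped with these receptors, was 13.1-fold lower.

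Early activation genes had 11 of 23 members at least 2-fold higher and none at least 2-fold lower, with a median of 0.76, but 6 were higher and 3 lower with spike-in scaling. Cd44, the adhesion receptor of antigen-experienced T cells, was 6.73-fold higher, with 1 of its 3 probes under 2-fold, and Fosl2, an AP-1 subunit, 12.5-fold, while the first-hours marker Cd69 differed by -0.13. Lists for antigen receptor signalling (7 of 20 higher, 1 lower) and for TNF receptors and costimulation (7 of 17 higher, 2 lower) had medians of 0.63 and 0.38, which turned to -0.03 and -0.28 with spike-in scaling. Quiescence and homing genes were split, with 5 of 24 higher and 4 lower, beside 16.6% and 10.5% over all genes, but 2 were higher and 10 lower with spike-in scaling, when the median went from -0.25 to -0.91, and 3 and 5 with quantile normalization. There Satb1, a chromatin organiser gene, was 6.53-fold higher and S1pr1, the egress receptor, 3.06-fold lower, while Tcf7 and Lef1 differed by -0.77 and -0.57.

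Interferon-induced genes were compared in cultures whose last medium held an antibody against IFNg. Of 20 type I interferon response genes 12 were at least 2-fold higher and 2 lower, with a median of 1.75, among them Oas3 (18.6-fold), Usp18 (9.04-fold) and Irf7 (8.21-fold). Of 12 GTPase genes that IFN-gamma induces, 6 were higher and none was at least 2-fold lower (median 0.96), and 3 were higher and 1 lower with spike-in scaling. Gbp7 was 6.47-fold and Gbp2 5.64-fold higher, while Irgm2 and Igtp differed by 0.04 and -0.28.

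Lineage lists of other helper cells were mixed. Of 9 Th2 genes, 6 were at least 2-fold higher and 1 lower, or 3 and 2 with spike-in scaling and 3 and 1 with normexp. Gata3, the Th2 master factor, differed by 0.10. Th17 genes were split 4 against 3 of 9, with a median of 0.30 that turned to -0.36 with spike-in scaling and to -0.19 when bounds were left out. Tfh genes were split 4 against 4 of 11, with a median of 0.37 that turned to -0.29 with spike-in scaling, and Bcl6 differed by 0.69.

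Metabolic genes leaned one way and proliferation genes the other. Of 22 glycolysis and hypoxia genes, 15 were at least 2-fold higher and none was at least 2-fold lower, with a median of 1.26. The glucose transporter gene Slc2a3 was 15.3-fold, Hif1a, the oxygen-sensing factor, 11.8-fold, the lactate exporter gene Slc16a3 10.3-fold and hexokinase 2, Hk2, 9.63-fold higher. With spike-in scaling 9 of the 22 were 2-fold higher. Hk2 had scaled signals of -0.05 in iTreg, 3.22 in Th1+TGFb, 3.81 in Th1, -1.03 in rested and 3.10 in Th1reg, so that iTreg stood nearer to the unstimulated rested culture than to the other stimulated ones. Sterol synthesis genes had 8 of 20 members higher and none lower (median 0.85), but 1 of 20 with spike-in scaling.

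Proliferation was read from 27 compared cell cycle genes, of which 6 were 2-fold or more lower in Th1+TGFb and none 2-fold higher, with a median of -0.60 that lay between -1.26 and -0.57 over the alternatives, and 23 were lower with spike-in scaling. Mki67, the proliferation marker, had scaled signals of 7.02 in iTreg, 5.31 in Th1+TGFb, 6.86 in Th1, 3.51 in rested and 7.12 in Th1reg, 3.28-fold lower in Th1+TGFb. Top2a, a DNA topoisomerase gene, was 2.58-fold and Kif11, a spindle motor gene, 2.43-fold lower. Th1+TGFb lay between rested and the other 3 arrays for these 3 genes. Among DNA methylation and polycomb genes, 3 of 14 were lower and 1 higher, beside 10.5% and 16.6% over all genes, with a median of -0.81. The methyltransferase gene Dnmt3b was 7.16-fold and Dnmt1, which copies methylation at replication, 2.54-fold lower. With spike-in scaling 10 of the 14 were lower.

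Smaller lists followed. Of 19 BCL-2 family and apoptosis genes, 7 were at least 2-fold higher and 2 lower, with a median of 0.69 that shrank to 0.03 with spike-in scaling, when 4 were higher and 4 lower. Pmaip1, which encodes the death protein Noxa, was 11.2-fold higher, Bcl2l11, or BIM, 5.54-fold higher, and the survival gene Bcl2 2.43-fold lower. Of 11 adenosine and ATP genes, 6 were higher and 2 lower, with the adenosine receptor gene Adora2b 25.9-fold and the ATP channel gene P2rx7 8.53-fold higher, and Nt5e, or CD73, 2.71-fold lower. Of 14 integrin genes, 7 were higher and 1 lower, or 4 and 3 with spike-in scaling, with Itga1 6.39-fold higher and Itga6 9.89-fold lower. Genes of cAMP signalling were split 4 against 5 of 14, with a median of 0.02 that turned below 0 with spike-in scaling (-0.64), quantile normalization (-0.22), the detected-probe percentile (-0.13), normexp (-0.10) and no filter (-0.14). Amino acid and ATF4 genes had 5 of 16 higher and 1 lower, with a median of 0.49 that turned to -0.17 with spike-in scaling. There 2 were higher and 4 lower, and 2 were higher and 3 lower both with the detected-probe percentile and with normexp. Chac1 and Asns were 15.9-fold and 11.7-fold higher.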

How the data were processed

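Total RNA from 5 mouse CD4 T cell cultures was labelled with Cy3 and put on 1 Agilent array each. The authors deposited the scanner output of Agilent Feature Extraction 10.7.1.1 (the submitters' processing notes), which gives each spot a processed intensity, which per the file headers was background-subtracted and detrended but not scaled from array to array. In the deposited value table, 99.7% to 99.8% of probes per array matched this intensity over 1 constant to within 0.01 on the log2 scale, and the table served as an alternative.

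Control spots and 109 to 142 outlier spots per array were left out, spots of a probe were averaged, and log2 of the mean was scaled to the array's 75th percentile over 55681 probes. Probe names came from RefSeq accessions (assembly GRCm38.p6, names only, since the array design uses mm9), which matched 28331 probes to 21368 genes. A gene was represented by its probe of highest mean signal. Of 1028 further probes of called genes, 91.8% had the same direction and 63.8% were also 2-fold apart that way. A dim value below the lowest signal well above background was raised to it, and genes dim on both arrays (8093) were not compared. The number of arrays limits the precision, and no test could be run with 1 array for each culture.

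Lists and members were chosen with earlier results of these data known. The named genes are Foxp3, Ccl5, Gzmb, H19, Tbx21, Ifng, Il10, Ctla4 and Il2ra, the 10 largest differences and 6 largest bounds each way, and the 4 members furthest apart of each list with at least 3 members 2-fold apart. The size ranking skipped Xist, Y-linked genes and predicted genes, and not every gene of the rule is named. List members and neighbouring genes named beyond this rule were chosen after their values were seen. Members with no matched probe were Itgae, Klrc2, Klra3, Bcl2a1a, Serpina3g, Ighm, Trdc, Hbb-bs and Ahsp. Promoters were the 250 bases upstream of RefSeq starts, and none was found in that table for Ccl5, H19 and Lrrc32. The comparison was tested on simulated data. Python 3.11.15, numpy 2.4.6 (also for quantile normalization), pandas 2.3.3, Biopython 1.88 and limma 3.58.1 in R 4.3.3 (normexp with offset 50) were used.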

Additional observations from a re-analysis of the deposited data

How the results depend on the processing

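The count of higher genes, 2202, was 1075 with spike-in scaling, 3349 with no filter on dim probes, 4023 over probes and 809 at 4-fold. The count of lower genes, 1389, was 3968 with spike-in scaling, 900 with normexp, 3568 over probes and 311 at 4-fold. Of 33 lists, 14 had a median of at least 1, against 7 with spike-in scaling and 9 with normexp. A median of -1 or less was found for 1 list, for 4 with spike-in scaling and for 0 with no filter, where the median of the imprinted list was 0.23. Over 1369 values of named genes under the alternatives, 1342 kept their side of the 2-fold limit, 23 lost it, 4 gained it and 0 changed direction. The spike-in scaling rests on 8 probes. The planned version of normexp needs mean signals, which the scanner output used here lacks. Normexp was therefore run on the median signals, a choice made after seeing the data. The 75th percentile over spots was added then too. No paired analysis was possible because each culture has 1 array. Spot repeats limit what 1 array can resolve, and the spread between cultures was not measured.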

Other observations

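Probes that the array design names by genome coordinates, which stand for intergenic transcripts, were counted apart from gene probes. Of 6100 such probes compared, 625 (10.2%) were at least 2-fold higher in Th1+TGFb and 955 (15.7%) lower. Of 17363 compared probes of RefSeq genes, 2732 (15.7%) were higher and 1961 (11.3%) lower. The 2 classes differed in detection. Of the coordinate probes, 1116 (18.3%) were dim on Th1+TGFb alone and 664 (10.9%) on iTreg alone, against 6.28% and 6.17% of gene probes. A probe dim on Th1+TGFb alone could not come out higher, and 1 dim on iTreg alone could not come out lower. These counts moved with the processing. With the detected-probe percentile 440 coordinate probes were higher and 1122 lower, and 2281 and 2565 gene probes. With quantile normalization the counts were 525 and 1086 against 2422 and 2406. With spike-in scaling they were 174 and 2034 against 1311 and 5502, and with no filter on dim probes 1985 and 1842 against 4188 and 2746. The median differences were 0.11 for coordinate probes and 0.07 for gene probes.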
